A study of Mus musculus with 12 samples.

Results

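The effect of a diet that lacked leucine, isoleucine and valine, the branched-chain amino acids or BCAA, which pressure-overloaded and sham-operated mouse hearts had in common was taken as the mean of 2 log2 differences, BCAA-free TAC minus control diet TAC and BCAA-free sham minus control diet sham. Of 16060 genes listed in either diet table, 15314 were in both, and the 15138 with a mean value of at least 10 in each table were tested. A gene was called when the adjusted p of this average was under 0.05 and its difference had the same sign after both operations, which held for 3507 genes. A narrower set passed the test in each operation on its own, meaning that the larger of its 2 p-values, adjusted over all genes, was under 0.05 with the same sign, which held for 21 genes. PolyA RNA was sequenced from hearts of male C57Bl/6J mice aged 12 weeks, with 3 samples in each of 4 groups. These were BCAA-free TAC, control diet TAC, BCAA-free sham and control diet sham. TAC, transverse aortic constriction, narrows the aorta so that the left ventricle pumps against a raised pressure, and sham is the operation without it. Both diets were begun 4 days before surgery and kept until the hearts were taken 2 weeks after it, and the control diet held every essential amino acid. Neither the hour of collection nor the number of hearts behind a sample is given in the labels, so p-values measure only how far these samples differ, a spread that can be technical.

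Leucine, isoleucine and valine are essential amino acids that muscle and heart transaminate (Bcat2) and then oxidise through the branched-chain keto acid dehydrogenase complex, which is switched off by its kinase Bckdk and on by its phosphatase Ppm1k. Leucine also signals abundance to the growth kinase complex mTORC1, and lack of an amino acid activates the kinase GCN2 and the transcription factor ATF4, which raises transporters, synthetic enzymes and tRNA synthetases. Pressure overload is known for a fetal and hypertrophic gene program in cardiomyocytes, matrix production by fibroblasts and recruitment of macrophages.

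Cardiomyocyte markers were high in every sample, but their sums differed between the diets in TAC. They were 4690598 to 4815338 normalized reads in BCAA-free TAC and 3133935 to 3893164 in control diet TAC hearts, without overlap. The sham sums overlapped, with 3367193 to 3663172 in BCAA-free and 3496567 to 3560061 in control diet hearts. Values are normalized reads, that is read counts of a gene over the size factor that a library has in that table, and changes are log2 fold changes ± SE from limma with n = 3 per group. The shallowest library, BCAA-free sham 2, held 13847107 reads and the deepest, control diet TAC 3, held 52065900. The libraries furthest from their group mates were control diet sham 3, control diet TAC 2 and BCAA-free sham 3, with root mean square deviations of 0.298, 0.287 and 0.254 on the log2 scale, against 0.179 to 0.242 in the others. Deviations of a library followed the GC content of genes with Spearman rho of 0.08 to 0.28 in BCAA-free TAC and -0.31 to -0.10 in control diet TAC libraries, and -0.11 to 0.13 in sham libraries. The median GC content was 51.8% of genes called up, 48.4% of genes called down and 49.8% of genes not called. With each library's GC and length trends removed, 3144 of the 3507 called genes were called.

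Of the genes tested, 1634 (10.8%) rose and 1873 (12.4%) fell on average, 136 of the rises and 226 of the falls by at least 1 on the log2 scale. The counts of every gene list below are to be read against these 2 shares. The effect was larger in TAC than in sham in 2802 (79.9%) of the called genes, whose median absolute change was 0.6062 in TAC and 0.3124 in sham. Among all genes tested, 4819 had an adjusted p under 0.05 in TAC and 378 in sham in the same limma fit. In 468 called genes the sham difference was under 0.1, so a call on the average is not a call in sham. The 2 effects differed between the operations, at an adjusted p of the difference under 0.05, in 341 (9.72%) of the called genes. The same held for 1329 of all 15138 genes tested, so such differences were not particular to called genes. Across all genes the sham and TAC differences had a Pearson r of 0.40 and a Spearman rho of 0.27, and 8603 genes (56.8%) had the same sign in both. At an unadjusted p under 0.05 in each operation, 576 genes (3.8%) were higher in both, 655 (4.33%) were lower in both and 265 (1.75%) had opposite signs. All BCAA-free samples lay above all control diet samples in both operations in 696 genes (4.6%) and below them in 739 (4.88%). In the authors' deposited diet comparisons, 320 genes had an adjusted p under 0.05 in both operations with the same direction. Of these, 319 were called here, but from the same 12 libraries, so the overlap is not independent support.

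**Figure D1:**
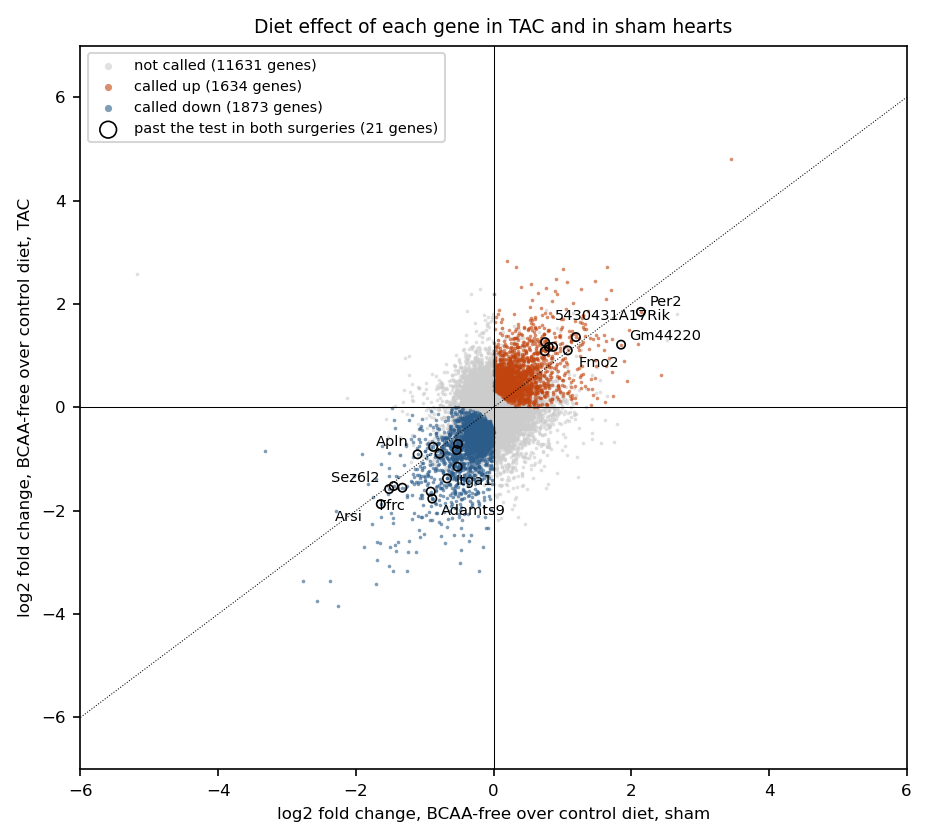
Diet effect (BCAA-free minus control diet, log2) after TAC, y axis, against that after sham, x axis, 1 point per gene for the 15138 genes tested. The 1634 genes called up, the 1873 called down and the 11631 not called differ in colour and the 21 genes past the test in each operation are circled. Called genes lie in the upper right and lower left quadrants because a call requires the same sign in both operations. Most called genes lie further from 0 on the TAC axis.

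Of the 21 genes past the test in each operation, 8 (0.0528% of genes tested) rose and 13 (0.0859%) fell. In all 21 the diets did not overlap in either operation, which such low p-values with 3 samples per group make likely beforehand. The smallest p was that of Tfrc, the transferrin receptor that carries iron into cells (chr16:32608920-32632794). Tfrc had 992, 994 and 1079 normalized reads in BCAA-free TAC hearts, against 2917, 2933 and 3345 in control diet TAC hearts. In BCAA-free sham hearts it had 836, 761 and 793, against 2960, 2002 and 1997 in control diet sham hearts. No BCAA-free sample came near a control diet sample of the same operation. Its log2 fold change was -1.58 ± 0.13 in TAC and -1.52 ± 0.13 in sham, and the larger p adjusted to 0.000116. Apln, the peptide ligand apelin made by endothelial cells (chrX:48025146-48034853), had 317, 326 and 324 in BCAA-free TAC against 592, 563 and 668 in control diet TAC hearts. In sham it had 229, 274 and 198 in BCAA-free against 611, 392 and 519 in control diet hearts. Apln thus fell by about the same amount in both operations, by 0.91 ± 0.15 in TAC and 1.10 ± 0.15 in sham on the log2 scale. Its receptor Aplnr also fell on average, by 1.46 ± 0.25, though it did not pass in sham alone.

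Papln and Adamts9, both secreted proteins of the ADAMTS-related family of the extracellular matrix, fell in both operations. Papln had 446, 568 and 337 in BCAA-free TAC against 1413, 1138 and 1352 in control diet TAC hearts, and 278, 265 and 188 in BCAA-free sham against 741, 518 and 569 in control diet sham hearts. Its log2 fold changes were -1.56 ± 0.20 in TAC and -1.32 ± 0.20 in sham. Adamts9, a protease that cleaves proteoglycans, fell by 1.77 ± 0.13 in TAC and 0.89 ± 0.13 in sham, a difference between the operations with an adjusted p of 0.018. The same held for the integrin alpha chains that bind collagen, Itga1, and laminin, Itga6. Itga1 fell by 1.38 ± 0.11 in TAC and 0.68 ± 0.11 in sham (adjusted p of the difference 0.022), and Itga6 by 1.15 ± 0.09 and 0.52 ± 0.09 (0.019). Those are the 3 of the 21 genes whose effects differed between the operations, each the larger in TAC, and 17 of the 21 had the larger effect in TAC.

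The mannose receptor Mrc1, a marker of resident macrophages, had 613, 644 and 734 in BCAA-free TAC against 1120, 1044 and 1083 in control diet TAC hearts. In sham it had 506, 500 and 524 in BCAA-free against 791, 680 and 723 in control diet hearts. Mrc1 fell by 0.71 ± 0.09 in TAC and 0.52 ± 0.09 in sham. Ankrd23, an ankyrin repeat protein of the sarcomere, fell by 1.63 ± 0.16 in TAC and 0.91 ± 0.16 in sham. The other falls were in Arsi, an arylsulfatase (average -1.76 ± 0.21), Sez6l2 (-1.49 ± 0.17), Igsf1 (-0.84 ± 0.10), Klhdc8a (-0.82 ± 0.08) and Nhlrc2 (-0.68 ± 0.07). Arsi and Sez6l2 were low, with 12.8 to 90.4 and 48.9 to 487 normalized reads.

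The largest of the 8 rises was Per2, a repressor of the circadian clock (chr1:91415982-91459324). Per2 had 1517, 1203 and 1190 in BCAA-free TAC hearts against 365, 377 and 338 in control diet TAC hearts, and 532, 787 and 396 in BCAA-free sham against 80.7, 127 and 184 in control diet sham hearts. The log2 fold changes were 1.85 ± 0.28 in TAC and 2.14 ± 0.28 in sham (adjusted p 0.0381). Fmo2, a flavin monooxygenase that oxidises foreign compounds (chr1:162874317-162898726), had 2468, 1822 and 2122 in BCAA-free TAC against 1175, 807 and 1019 in control diet TAC hearts. It had 1878, 1819 and 1579 in BCAA-free sham against 770, 966 and 768 in control diet sham hearts. Fmo2 rose by nearly the same amount in both, 1.10 ± 0.15 in TAC and 1.08 ± 0.15 in sham. Neat1, the long noncoding RNA that builds nuclear paraspeckles (chr19:5824708-5845478), had 78216, 67428 and 69285 in BCAA-free TAC against 31327, 31586 and 32402 in control diet TAC hearts. In sham hearts it had 50775, 67671 and 67327 in BCAA-free against 28736, 33864 and 39414 in control diet samples. It was higher in all BCAA-free samples, by 1.17 ± 0.13 in TAC and 0.86 ± 0.13 in sham. Adora1, the A1 adenosine receptor, rose by 0.91 ± 0.09 on average, Cbx7, a Polycomb protein, by 1.00 ± 0.09, and the neurexin gene Nrxn2 by 0.99 ± 0.10. The other rises were in the long noncoding RNA 5430431A17Rik (1.28 ± 0.09) and the unclassified transcript Gm44220 (1.53 ± 0.15).

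**Figure D2:**
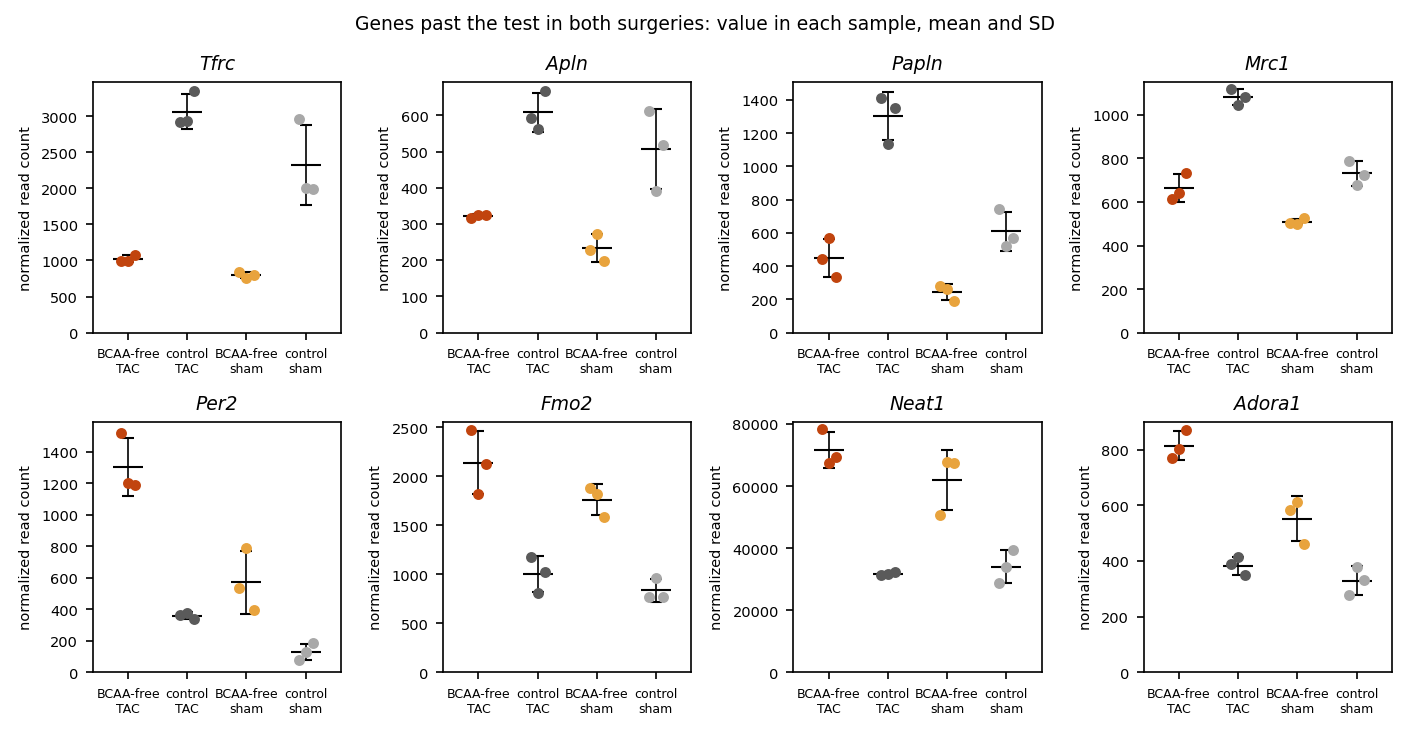
Normalized reads (y axes, each from 0) of Tfrc, Apln, Papln, Mrc1, Per2, Fmo2, Neat1 and Adora1 in BCAA-free TAC, control diet TAC, BCAA-free sham and control diet sham hearts. Points are samples, bars are means and error bars are SD (n = 3); in each of the 8 genes the BCAA-free samples of an operation do not overlap its control diet samples.

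The number of genes past in each operation rested on few samples. It was 33 rises and 60 falls without control diet TAC 2, with all 21 genes among them, 26 and 33 without control diet sham 2, and 13 and 11 without BCAA-free sham 3. It was 7 and 9 without control diet sham 3, and it fell to between 2 and 3 rises and between 1 and 6 falls without any one of the other 8 libraries, with the fewest, 2 and 1, without BCAA-free sham 2.

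Activators of the circadian clock fell, and several of its repressors and output genes rose. In the circadian clock, Arntl (BMAL1) with Clock or Npas2 drives Per and Cry genes, whose proteins repress them, and nuclear receptors of the Nr1d family repress Arntl. Of 19 core clock genes tested, 6 rose and 3 fell, and of 14 clock-controlled output genes 8 rose and 3 fell, against 10.8% and 12.4% of all genes. The falls were the activators. Arntl (chr7:113207465-113314126) had 136, 190 and 158 in BCAA-free TAC hearts against 888, 788 and 827 in control diet TAC hearts, and 447, 261 and 742 in BCAA-free sham against 918, 899 and 1001 in control diet sham hearts. Arntl was lower without overlap in both operations, with log2 fold changes of -2.38 ± 0.28 in TAC and -1.08 ± 0.28 in sham (averaged adjusted p 0.000188). Npas2 fell by 1.06 ± 0.16 on average and Clock by 0.65 ± 0.08, and the 2 effects on Npas2 differed between the operations (adjusted p 0.04). Rises were seen in Per2, Per3 (1.51 ± 0.27), Ciart (1.57 ± 0.47), Cry2 (0.65 ± 0.14), Nr1d2 (0.64 ± 0.11) and Csnk1e (0.29 ± 0.07). The remaining core genes, with Per1 at 0.06 ± 0.32, Cry1 at 0.01 ± 0.11 and Nr1d1 at 0.04 ± 0.17, were not called.

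Among the output genes, the related factors Dbp (2.17 ± 0.42), Hlf (1.58 ± 0.24) and Tef (0.93 ± 0.18), which activate genes through D-boxes, rose, and Nfil3, which represses through the same element, fell by 1.38 ± 0.40. Dbp had 6131, 5884 and 5074 in BCAA-free TAC against 855, 989 and 780 in control diet TAC hearts. It had 2193, 2892 and 466 in BCAA-free sham against 479, 665 and 304 in control diet sham hearts. The groups did not overlap in TAC, but in sham the third BCAA-free sample lay among the control diet samples, as it did for Per3 and Hlf, and for Ciart it lay below them. Without that sample 7 core genes and 9 output genes rose, and 4 core genes rose without BCAA-free sham 2.

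The promoter of Ciart, a repressor of the clock that is itself driven through E-boxes, and that of Arntl are shown because these genes moved in opposite directions. The windows are RefSeq promoters of GRCm38.p6, from 250 bases before to 50 bases after the start, on the strand of the gene. Capitals mark the E-box CACGTG in Ciart (minus strand, chr3:95882179-95882478), which begins 116, 58 and 44 bases before the start, and the nuclear receptor half-site AGGTCA in Arntl (plus strand, chr7:113207261-113207560), which begins 32 bases after the start. The table's other Arntl window, chr7:113207215-113207514, holds no AGGTCA.
Ciart: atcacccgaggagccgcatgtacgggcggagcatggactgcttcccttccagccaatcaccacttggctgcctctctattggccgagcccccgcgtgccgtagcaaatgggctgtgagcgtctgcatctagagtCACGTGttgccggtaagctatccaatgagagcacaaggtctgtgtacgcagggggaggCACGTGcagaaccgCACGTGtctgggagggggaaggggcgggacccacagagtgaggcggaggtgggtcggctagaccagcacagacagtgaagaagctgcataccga
Arntl: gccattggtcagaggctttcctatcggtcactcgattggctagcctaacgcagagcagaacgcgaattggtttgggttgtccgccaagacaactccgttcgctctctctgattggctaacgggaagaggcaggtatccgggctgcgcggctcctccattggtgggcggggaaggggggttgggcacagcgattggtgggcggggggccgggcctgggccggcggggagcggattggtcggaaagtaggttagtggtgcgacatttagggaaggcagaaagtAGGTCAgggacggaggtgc
Searched on both strands, CACGTG was in 7.15% of the 32851 promoters of the table. It was in 4 of 14 core clock genes with a promoter there (Bhlhe41, Ciart, Cry1 and Per1) and in 2 of 13 output genes (Tef and Tspan4). AGGTCA was in 16.3% of all promoters, in 4 of 14 core clock genes (Arntl, Clock, Nr1d2 and Per1) and in 3 of 13 output genes (Herpud1, Nampt and Nfil3). A gene counted when any of its windows held the motif, so these counts are not strictly comparable with the shares of promoters. The genes with a motif include some that rose, some that fell and some not called.

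**Figure D3:**
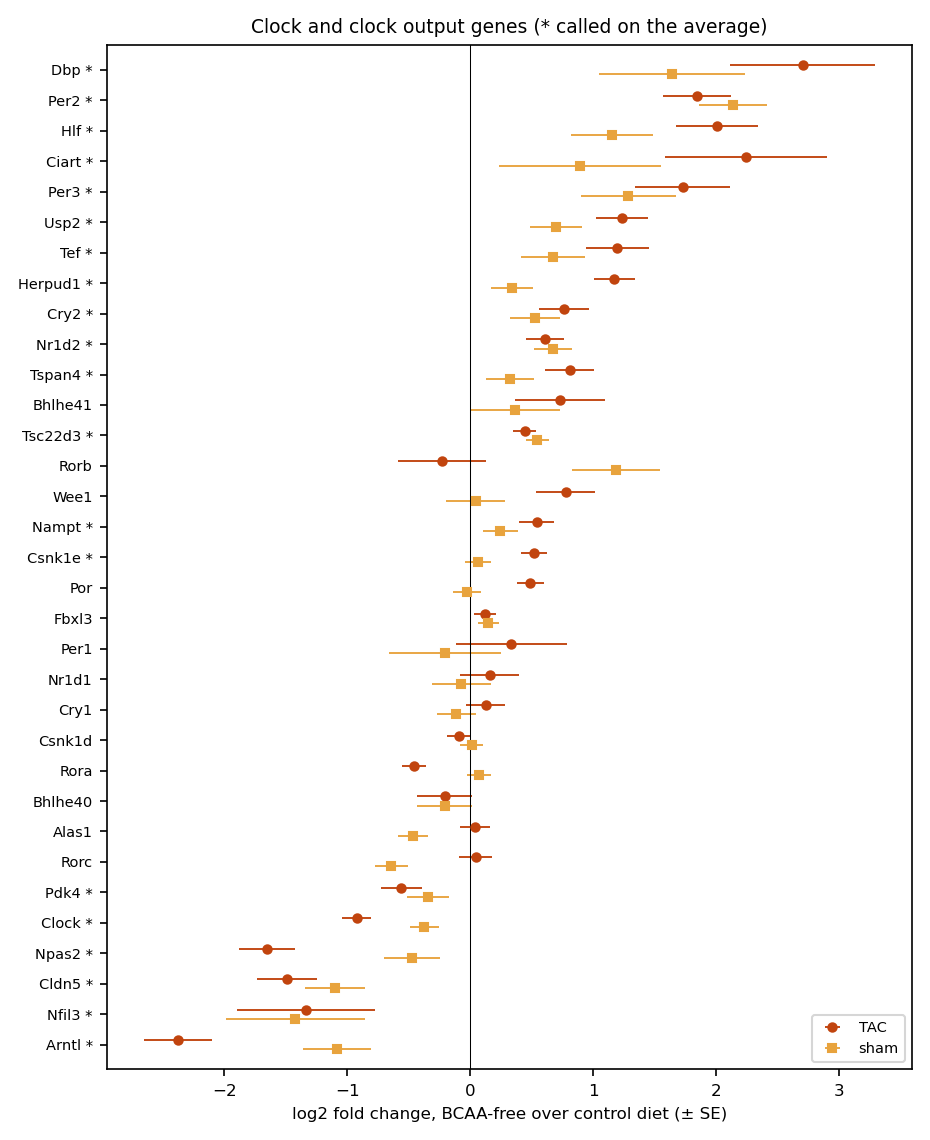
Diet effect (BCAA-free minus control diet, log2 ± SE, x axis) of the 33 core clock and clock output genes tested, with TAC as circles and sham as squares. An asterisk marks a called gene; Dbp, Per2 and Ciart are among those furthest to the right and Arntl, Nfil3 and Cldn5 are among those furthest to the left.

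Antigen presentation and macrophage genes fell together. MHC class II molecules, built from alpha and beta chains with the invariant chain Cd74 and loaded by H2-DM, present peptides to CD4 T cells under control of the coactivator Ciita. Of 12 class II genes tested 8 fell and none rose, against 12.4% and 10.8% of all genes. Their median was -0.90 (TAC -1.12, sham -0.75) against a median of 0.0072 over all genes. In both operations 6 were lower without overlap, against 4.88% of all genes. H2-Eb1 (chr17:34305867-34316674) had 458, 566 and 643 in BCAA-free TAC hearts against 1322, 2119 and 2037 in control diet TAC hearts. It had 416, 276 and 344 in BCAA-free sham against 693, 650 and 1199 in control diet sham hearts. All BCAA-free samples of an operation lay below its control diet samples, with an average of -1.48 ± 0.18 (adjusted p 0.000246). H2-Ab1 (-1.42 ± 0.18), H2-Aa (-1.38 ± 0.14), H2-DMb1 (-1.37 ± 0.19), Cd74 (-1.21 ± 0.13), Ctss, the protease that trims the invariant chain (-0.91 ± 0.16), H2-DMa (-0.89 ± 0.14) and Ciita (-0.76 ± 0.20) fell as well. In none of the 8 did the TAC and sham effects differ at an adjusted p under 0.05. None passed in each operation, with an adjusted p of 0.0597 for Cd74 and 0.0705 for H2-Eb1.

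The promoters of H2-Aa, an alpha chain, and H2-Eb1, a beta chain, are shown for the Y box, the CCAAT-like element of class II promoters. Capitals mark CTGATTGG, which begins 51 bases before the start in H2-Aa (minus strand, chr17:34287774-34288073) and 62 bases before it in H2-Eb1 (plus strand, chr17:34305617-34305916).
H2-Aa: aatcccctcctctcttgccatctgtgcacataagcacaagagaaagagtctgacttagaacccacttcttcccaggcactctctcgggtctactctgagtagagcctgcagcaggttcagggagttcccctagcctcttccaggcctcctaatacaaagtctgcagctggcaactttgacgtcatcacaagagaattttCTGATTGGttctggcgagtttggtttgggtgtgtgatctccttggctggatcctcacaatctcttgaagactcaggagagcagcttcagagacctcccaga
H2-Eb1: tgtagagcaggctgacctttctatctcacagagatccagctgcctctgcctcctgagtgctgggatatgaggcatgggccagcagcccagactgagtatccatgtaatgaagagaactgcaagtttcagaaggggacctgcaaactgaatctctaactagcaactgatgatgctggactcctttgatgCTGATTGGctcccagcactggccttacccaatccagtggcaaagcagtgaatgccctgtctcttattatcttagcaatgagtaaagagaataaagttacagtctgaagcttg
On either strand CTGATTGG was in 4.1% of all promoters of the table. Counted by gene, it was in these 2 of the 9 class II genes with a promoter there.

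Of 23 macrophage genes tested, 12 fell and 1 rose, with a median of -0.54. The complement genes C1qa, C1qb and C1qc fell by 0.71 ± 0.13, 0.81 ± 0.16 and 0.65 ± 0.13, the receptor Csf1r by 0.48 ± 0.06, Adgre1 (F4/80) by 1.08 ± 0.14 and Cx3cr1 by 1.16 ± 0.19. Fcrls, a receptor-like gene of macrophages and microglia, was among the 15 largest falls (-1.42 ± 0.16). The rise was in Gpnmb (0.59 ± 0.15), a lysosomal glycoprotein. Summed over the list, the level was 12447 to 14552 in BCAA-free TAC against 17594 to 20378 in control diet TAC hearts, and 8904 to 9631 in BCAA-free sham against 10441 to 15048 in control diet sham hearts. In bulk RNA, fewer cells of a type and less RNA per cell cannot be told apart. Of the 19 T and B lymphocyte markers 12, Cd3e among them, were not tested, and none of the other 7 was called. Of 7 neutrophil and mast cell markers tested, the mast cell receptor Kit fell (-0.61 ± 0.13), a call lost without BCAA-free sham 3, control diet sham 1 or control diet sham 3.

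Interferon-stimulated genes, which code antiviral proteins and their regulators, fell in 22 of 27 and rose in none, against 12.4% and 10.8% of all genes. All 27 averages were below 0, with a median of -0.73 (TAC -1.01, sham -0.25). Isg15, a ubiquitin-like protein, had 54.2, 56.3 and 77 in BCAA-free TAC against 149, 210 and 156 in control diet TAC hearts. In sham it had 40.2, 34.2 and 38.2 in BCAA-free against 73.2, 46.2 and 145 in control diet hearts. The diets did not overlap in either operation, which was so for 8 of the 27, against 4.88% of all genes lower without overlap. Zbp1, a sensor of nucleic acids, fell by 1.59 ± 0.18, Ifi44 by 1.34 ± 0.17, Ifit3 by 1.13 ± 0.16 and Irf7, the regulator of the response, by 1.02 ± 0.15. Rsad2 fell by 1.59 ± 0.16 in TAC and 0.44 ± 0.16 in sham (adjusted p of the difference 0.016).

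Of the 37 lists, collagens and matrix held the largest number of falls, but it is also one of the longer lists. Interferon-stimulated genes had the larger share of falls, 22 of 27. All 41 collagen and matrix genes tested had an average below 0, but not each of them was lower in sham. Col12a1 had 83.86, 79.08 and 77.63 in BCAA-free sham against 56.35, 57.42 and 60.6 in control diet sham hearts. Of the 41 genes 27 were called down, against 12.4% of all genes, and 19 were lower without overlap in both operations, against 4.88%. The median was -0.95 on average, -1.72 in TAC and -0.36 in sham. Col3a1, the fibrillar collagen III (chr1:45311538-45349706), had 2856, 3491 and 5313 in BCAA-free TAC hearts against 17052, 49471 and 20396 in control diet TAC hearts, and 2023, 1466 and 1693 in BCAA-free sham against 5505, 4330 and 4014 in control diet sham hearts. The diets were apart in both operations, and control diet TAC 2 stood highest of the TAC samples. Col3a1 fell by 2.10 ± 0.26, Col15a1 by 1.60 ± 0.15, the fibrillin Fbn1 by 1.51 ± 0.13 and the basement membrane collagen Col4a1 by 1.24 ± 0.11. The effect on Fbn1 was -2.25 ± 0.18 in TAC and -0.77 ± 0.18 in sham, with an adjusted p of the difference of 0.012. Postn, the matricellular protein periostin of activated fibroblasts, had a call on the average (-1.47 ± 0.36), yet in sham it overlapped, with 926, 846 and 659 in BCAA-free against 1082, 836 and 1186 in control diet hearts. Summed collagens and matrix were 90196 to 124223 in BCAA-free TAC against 247189 to 560658 in control diet TAC hearts, and 66909 to 70747 in BCAA-free sham against 84901 to 98547 in control diet sham hearts. Outside the list, the matrix protein Spon2 fell by 2.15 ± 0.29.

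Of 20 fibroblast markers 11 fell and 1 rose, with a median of -0.51. Pi16, which marks a subset of perivascular fibroblasts, fell by 1.25 ± 0.22 in TAC and 0.95 ± 0.22 in sham, Cd248 by 1.07 ± 0.17 and 0.71 ± 0.17, and Vcan (versican) by 1.81 ± 0.19 and 0.54 ± 0.19. Neither Tcf21 (-0.03 ± 0.11) nor Pdgfra, the markers most used for resident cardiac fibroblasts, was called. Pdgfra was lower in TAC (-0.71 ± 0.09) and at 0.00 ± 0.09 in sham. The rise was in Dpep1 (0.34 ± 0.08).

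Of 18 hypertrophy and fetal program genes 7 fell and none rose, against 12.4% and 10.8% of all genes, with a median of -0.32. Acta1, skeletal alpha actin, which is high in the fetal heart (chr8:123891769-123894751), had 14390, 12173 and 14565 in BCAA-free TAC against 56711, 103144 and 97144 in control diet TAC hearts. In sham it had 4113, 4206 and 3040 in BCAA-free against 10294, 6534 and 14198 in control diet hearts. It was lower without overlap in both, with -2.60 ± 0.28 in TAC and -1.39 ± 0.28 in sham. The natriuretic peptide gene Nppb fell by 1.11 ± 0.24, and the calcineurin regulator Rcan1 by 1.08 ± 0.13 with a larger effect in TAC (adjusted p of the difference 0.046). Xirp2, an actin-binding protein of the intercalated disc, was called with -1.77 ± 0.27 in TAC and -0.05 ± 0.27 in sham (adjusted p of the difference 0.023), and its sham sign turned without control diet sham 1 or 2. Nppa (-0.32 ± 0.46), Myh7, the slow myosin heavy chain (-0.09 ± 0.27), and Ankrd1 (-0.32 ± 0.19) were not called. Mir208b rose by 1.16 ± 0.15, but it lies within Myh7 on the same strand, so reads of the pair cannot be told apart at that position.

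**Figure D4:**
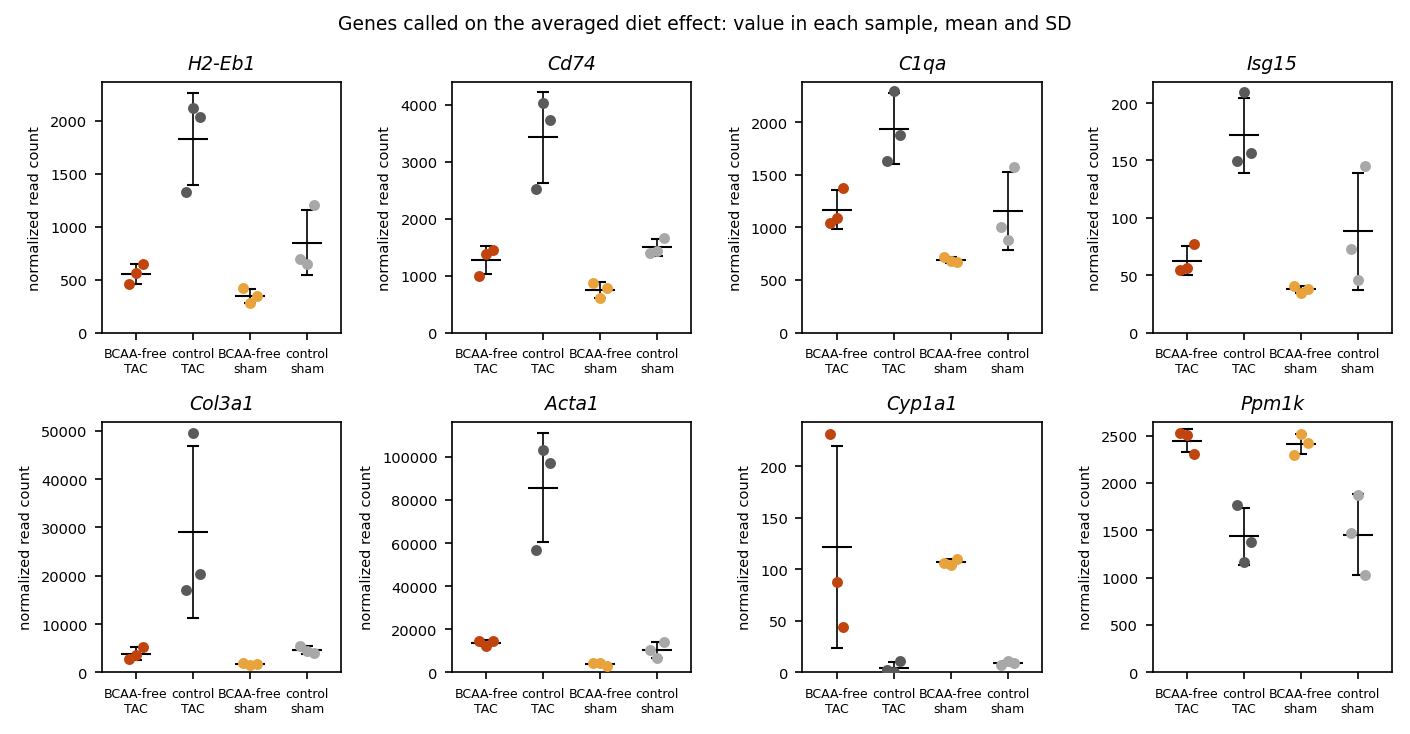
Normalized reads (y axes, each from 0) of H2-Eb1, Cd74, C1qa, Isg15, Col3a1, Acta1, Cyp1a1 and Ppm1k in BCAA-free TAC, control diet TAC, BCAA-free sham and control diet sham hearts. Points are samples, bars are means and error bars are SD (n = 3); Col3a1 and Acta1 are lower in the BCAA-free samples of either operation, and Cyp1a1 is 44.4 or more in every BCAA-free sample and 11.2 or less in every control diet sample.

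Cell cycle genes fell in 18 of 27 and rose in 1, against 12.4% and 10.8% of all genes, with a median of -0.90. Mki67, the proliferation marker Ki-67, had 30.1, 46.1 and 27.6 in BCAA-free TAC against 199, 764 and 331 in control diet TAC hearts, and 29.1, 23.5 and 38.2 in BCAA-free sham against 124, 61.2 and 130 in control diet sham hearts. It fell by 3.42 ± 0.43 in TAC and 1.71 ± 0.43 in sham without overlap. Top2a (-3.16 ± 0.43) and the kinase Cdk1 (-3.06 ± 0.53) fell more, at lower levels. Most of these genes were at low values, and among those with a mean of at least 100 in each table only 3 fell. The rise was in Cenpf, a centromere protein (0.95 ± 0.12), with a larger effect in TAC (adjusted p of the difference 0.045).

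Iron genes changed in both directions around the fall of Tfrc, 6 up and 5 down of 22, against 10.8% and 12.4% of all genes. The importers of divalent metal ions went apart, Slc39a8 rising by 0.91 ± 0.19 and Slc11a2 falling by 0.27 ± 0.06. The exporter Slc40a1, ferroportin, had 883, 962 and 738 in BCAA-free TAC against 563, 378 and 589 in control diet TAC hearts, and 985, 819 and 1012 in BCAA-free sham against 628, 677 and 569 in control diet sham hearts. Slc40a1 rose without overlap in both operations by 0.68 ± 0.11 on average. Hamp, which codes hepcidin, the peptide that removes ferroportin from the membrane, rose by 1.86 ± 0.36 at 6.24 to 181 normalized reads, and Bmp6, which induces it in the liver, by 0.62 ± 0.08. Fth1, the ferritin heavy chain that stores iron, rose by 0.32 ± 0.07, while Ncoa4, which delivers ferritin to lysosomes, fell by 0.32 ± 0.07 and Ireb2, an iron regulatory protein that stabilises Tfrc mRNA, by 0.35 ± 0.07. Hmox1, which frees iron from heme, fell by 0.45 ± 0.12.

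Genes that catabolise BCAA rose in 10 of 26 and fell in none, with 24 averages above 0 and a median of 0.23 (TAC 0.45, sham 0.05). The phosphatase Ppm1k (chr6:57506502-57535468) had 2523, 2511 and 2305 in BCAA-free TAC hearts against 1765, 1163 and 1375 in control diet TAC hearts. It had 2300, 2516 and 2420 in BCAA-free sham against 1470, 1870 and 1024 in control diet sham hearts. Ppm1k was higher without overlap in both, by 0.79 ± 0.18 in TAC and 0.77 ± 0.18 in sham (averaged adjusted p 0.00118). Klf15, a transcription factor of amino acid catabolism, rose by 0.66 ± 0.13 on average. Among the other rises, Bcat2 changed by 0.64 ± 0.09 in TAC and 0.09 ± 0.09 in sham and Bckdha by 0.75 ± 0.13 and 0.07 ± 0.13, each with an adjusted p of the difference under 0.05 (0.023 and 0.036). Bckdk was 0.46 ± 0.09 in TAC and -0.04 ± 0.09 in sham and was not called, as its signs differ.

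Of 22 amino acid transporters 4 rose and 2 fell, against 10.8% and 12.4% of all genes, which is no result about the list as a whole. Slc7a1, which carries cationic amino acids, rose by 0.40 ± 0.12 in TAC and 0.54 ± 0.12 in sham, and the glycine transporter Slc6a9 by 0.56 ± 0.18 and 0.78 ± 0.18. Slc43a1 (0.68 ± 0.14) rose and Slc43a2 (-0.39 ± 0.07) fell, although both carry large neutral amino acids. Slc7a6 fell by 0.38 ± 0.07 on average. Of 34 genes of amino acid sensing and mTORC1, 1 rose and 4 fell, which likewise is no result about that list as a whole. The rise was in the GTPase Rragb (0.44 ± 0.15). The falls were in Ddit4l (-0.65 ± 0.16), the folliculin partners Fnip1 (-0.33 ± 0.08) and Fnip2 (-0.53 ± 0.18) and Sesn3 (-0.36 ± 0.09). Fnip2 was not called with edgeR, nor when any library other than BCAA-free sham 3, control diet sham 1 or control diet TAC 1 was left out. The leucine sensor Sesn2 was at -0.09 ± 0.16, and the number of rises was 4 without control diet sham 3, 1 without control diet sham 2 or BCAA-free TAC 3, and 0 without any one of the other libraries.

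ATF4 targets were split, with 5 up and 7 down of 31. Their median of -0.09 lay between -0.19 (without BCAA-free TAC 2) and -0.03 (without control diet sham 2) with 1 library left out, and was 0.02 among genes with a mean of at least 100. Mthfd2, a mitochondrial folate enzyme, had 59.2, 117 and 128 in BCAA-free TAC against 233, 279 and 134 in control diet TAC hearts, and 72.2, 103 and 71.8 in BCAA-free sham against 483, 168 and 200 in control diet sham hearts. Mthfd2 was lower without overlap in both (average -1.36 ± 0.29). Asns, asparagine synthetase, fell by 0.69 ± 0.19, Aldh18a1 and Pycr1, enzymes of proline synthesis, by 0.69 ± 0.10 and 0.74 ± 0.24, and the stress cytokine Gdf15 by 1.91 ± 0.43. The rises were in Cth, cystathionine gamma-lyase (1.29 ± 0.26), Slc7a1, Stc2, Gpt2 and Cebpb. Cebpb changed in TAC alone, with 2.20 ± 0.18 there and 0.00 ± 0.18 in sham (adjusted p of the difference 0.0046), and its sign in sham turned under some settings. Atf4 itself was at -0.24 ± 0.15 and not called. Without control diet sham 3, 8 targets rose. Among 20 aminoacyl-tRNA synthetases only Kars rose (0.28 ± 0.06) and Yars fell (-0.24 ± 0.07), and the synthetases for leucine, isoleucine and valine (Lars, Iars and Vars) were not called.

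Of 21 genes of xenobiotic metabolism 10 rose and none fell, against 10.8% and 12.4% of all genes, with a median of 0.31. Cyp1a1, the cytochrome that is the standard target of the aryl hydrocarbon receptor (chr9:57687928-57703824), had 232, 87.9 and 44.4 in BCAA-free TAC hearts against 2.69, 0 and 10.6 in control diet TAC hearts. It had 106, 105 and 110 in BCAA-free sham against 6.73, 11.2 and 9.22 in control diet sham hearts. The diets lay far apart in both operations (4.81 ± 0.75 in TAC and 3.45 ± 0.75 in sham, averaged adjusted p 0.000356). Other targets of the receptor, Cyp1b1 (0.01 ± 0.10), Ahrr (-0.05 ± 0.14) and Tiparp (-0.48 ± 0.22), were not called, and the receptor gene Ahr rose by 0.55 ± 0.16. The monooxygenases Fmo1 (0.31 ± 0.07) and Fmo5 (0.44 ± 0.09) rose with Fmo2, as did Cyp2e1 (1.44 ± 0.33).

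Of 31 genes of NRF2 and cysteine metabolism 9 rose and 2 fell, and 14 rose without control diet sham 3. The enzymes that make cysteine from homocysteine, Cbs (1.61 ± 0.35) and Cth, and Cdo1, which oxidises cysteine (1.04 ± 0.28), rose. Cdo1 overlapped in TAC, with 120.4 in BCAA-free TAC 1 against 224.8 in control diet TAC 1. Cbs and Cth were low, at 2.52 to 32.6 and 9.42 to 59.9 normalized reads. Gstm1, a glutathione transferase, rose by 1.06 ± 0.12 in TAC and 0.60 ± 0.12 in sham without overlap, and Nqo1, the standard NRF2 target, was at 0.19 ± 0.09 and not called. Gnmt, the glycine methyltransferase that uses up methyl groups, was among the 15 largest rises (1.27 ± 0.22).

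Fatty acid oxidation genes rose in 9 of 41 and fell in 1, with a median of 0.38 in TAC and -0.10 in sham, and the rises were 4 without control diet sham 1 and 5 without either of the first and second BCAA-free TAC samples. Lpl, the lipase that frees fatty acids from lipoproteins, had 148907, 151450 and 140693 in BCAA-free TAC against 124779, 94289 and 123046 in control diet TAC hearts. It had 154815, 152200 and 161650 in BCAA-free sham against 112387, 115369 and 100848 in control diet sham hearts. Lpl rose by 0.45 ± 0.08, and Pnpla2 and Dgat2, which break down and make triglyceride, by 0.75 ± 0.10 and 1.04 ± 0.16 in TAC against 0.22 ± 0.10 and 0.18 ± 0.16 in sham. Pdk4, the kinase that turns off pyruvate dehydrogenase, fell by 0.45 ± 0.12. Of 17 adipocyte markers 7 rose, among them Retn (1.54 ± 0.45), Cidec (1.36 ± 0.41) and Cfd (1.35 ± 0.41), and 1 fell, the lipogenic enzyme Acaca (-0.41 ± 0.13). Lpl, Pnpla2, Dgat2 and Lipe, also among the rises, had group means of 1666 or more. Cfd overlapped, with 135 in BCAA-free sham 3 against 143.6 in control diet sham 3, and 235.8 in BCAA-free TAC 1 against 308.2 in control diet TAC 1. Cidec overlapped in TAC, with 74.26 in BCAA-free TAC 1 against 90.19 in control diet TAC 1. The rises of this list were 4 without BCAA-free sham 1 or 2 or BCAA-free TAC 2 or 3, and its fall was lost without any one of BCAA-free sham 1 to 3, control diet sham 1 or 2 and BCAA-free TAC 1. Adipoq, at 0.76 ± 0.51 with 21.2 to 161 normalized reads, was not called.

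Of 31 glycolysis and glycogen genes 4 rose, with Pfkfb1 (1.54 ± 0.31) and the glucose transporter Slc2a4 (0.38 ± 0.09) among them, and 5 fell, with Gapdh at -0.35 ± 0.08. The falls were 3 without BCAA-free sham 1 or 2, control diet sham 1, BCAA-free TAC 1 or 2 or control diet TAC 2 or 3. Of 44 citric acid cycle and respiratory chain genes 43 averages were above 0, but only Idh2 (0.54 ± 0.09) and Ndufv1 (0.40 ± 0.09) were called, since the median was 0.47 in TAC and -0.16 in sham. The call on Ndufv1 was lost with DESeq2 and without any one of BCAA-free sham 3 and control diet sham 1 and 2. None of 43 cytosolic ribosomal protein genes was called. Without control diet sham 3 the rises of these lists were 14 and 15, and Slc2a4 was not called. Cholesterol genes had 4 rises, among them the sterol receptor Nr1h3 (0.55 ± 0.09), and 4 falls of 30, with the exporter Abca1 at -0.71 ± 0.13, and the rises were 2 without any library other than BCAA-free sham 3, control diet sham 2 or control diet TAC 1.

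Potassium channel genes rose in 8 of 17 and fell in 1, against 10.8% and 12.4% of all genes, with a median of 0.36. Kcnh2, which carries a delayed rectifier current, rose by 1.31 ± 0.17 in TAC and 0.29 ± 0.17 in sham (adjusted p of the difference 0.026), and Kcnj12, an inward rectifier, by 0.93 ± 0.12 and 0.24 ± 0.12 (0.029). Kcnj11, the pore of the ATP-sensitive channel, rose by 0.36 ± 0.08 on average, but not without control diet sham 3. The fall was in Kcne1 (-0.43 ± 0.13), a subunit of a slow channel. The median of 20 cardiomyocyte markers was 0.289 in TAC and -0.146 in sham. On average Myh6 (0.44 ± 0.10), Tnnt2, Atp2a2 and Pln rose and the giant genes Ttn (-0.47 ± 0.09) and Ryr2 (-0.38 ± 0.11) fell. Tnnt2 changed by 0.68 in TAC and 0.18 in sham, and Ttn by -0.46 and -0.49. Pln was higher without overlap in both operations, whereas Atp2a2 overlapped in sham. Tcap, the titin cap protein of the Z-disc, had 96771, 87261 and 83732 in BCAA-free TAC against 29706, 23884 and 25564 in control diet TAC hearts. In sham it had 54467, 59451 and 30841 in BCAA-free against 22408, 28967 and 26136 in control diet hearts. It was higher in both, by 1.31 ± 0.14 on average, without overlap, as entry among the 15 largest rises required. Of 15 atrial and conduction markers Tbx5, Nr2f2 and Tbx3 rose, by 0.61 ± 0.11 to 0.73 ± 0.13, and 5 rose without control diet sham 1.

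Of 22 endothelial markers 4 rose, with Vwf at 0.57 ± 0.09, and 4 fell, with Aplnr, Apln and the tight junction gene Cldn5 (-1.29 ± 0.17) far ahead of Cdh5 (-0.24 ± 0.08), and Pecam1 was not called. Of 19 smooth muscle and pericyte markers the contractile genes Lmod1 (0.81 ± 0.12), Myh11 (0.80 ± 0.14) and Mylk (0.48 ± 0.07) rose and Mcam and Casq2 fell. Casq2 is the cardiac calsequestrin, which cardiomyocytes express, and had 18987 to 38693 normalized reads. Myh11 changed by 0.41 ± 0.19 in TAC and 1.18 ± 0.19 in sham, and Lmod1 by 0.49 ± 0.17 and 1.12 ± 0.17, with adjusted p of the difference of 0.093 and 0.11. Of 7 blood cell genes tested only Hbb-bt fell (-0.49 ± 0.13).

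Stress and hormone lists were mixed, and their counts, like those of every other list, are to be read against the 10.8% of all genes called up and the 12.4% called down. Of 35 immediate early and stress genes 4 rose and 4 fell, with falls in Pim1 (-0.92 ± 0.09) and Gadd45g (-0.92 ± 0.10), and the falls were 15 without control diet sham 1 and 8 without control diet TAC 1, and the rises 2 without BCAA-free sham 2. Of 21 glucocorticoid response genes 6 rose, among them Tsc22d3 (0.49 ± 0.07), and 2 fell, with the receptor Nr3c1 at -0.48 ± 0.09. Of 29 FOXO targets 8 rose and 2 fell, and 5 rose without BCAA-free sham 2. Of 25 genes of the unfolded protein response 6 rose, with Herpud1 at 0.76 ± 0.12 and Hspa5 at 0.26 ± 0.09, and 2 fell. Only 2 rose without BCAA-free sham 3 and 3 without control diet sham 1, BCAA-free TAC 1 or 3 or control diet TAC 1. The cold-inducible genes Cirbp (0.76 ± 0.13) and Rbm3 (0.38 ± 0.08) rose and 3 of the 24 heat shock and cold-inducible genes fell, a count of 6 without BCAA-free sham 3 and of 1 without BCAA-free sham 1 or 2, BCAA-free TAC 1 or 2 or control diet TAC 2 or 3. Of 15 genes of the IGF axis 3 rose and 3 fell, with Igf1 at -1.26 ± 0.24 in TAC and -0.09 ± 0.24 in sham (adjusted p of the difference 0.0465), a call lost without control diet sham 1, and 1 gene of the list fell without BCAA-free sham 1.

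**Figure D5:**
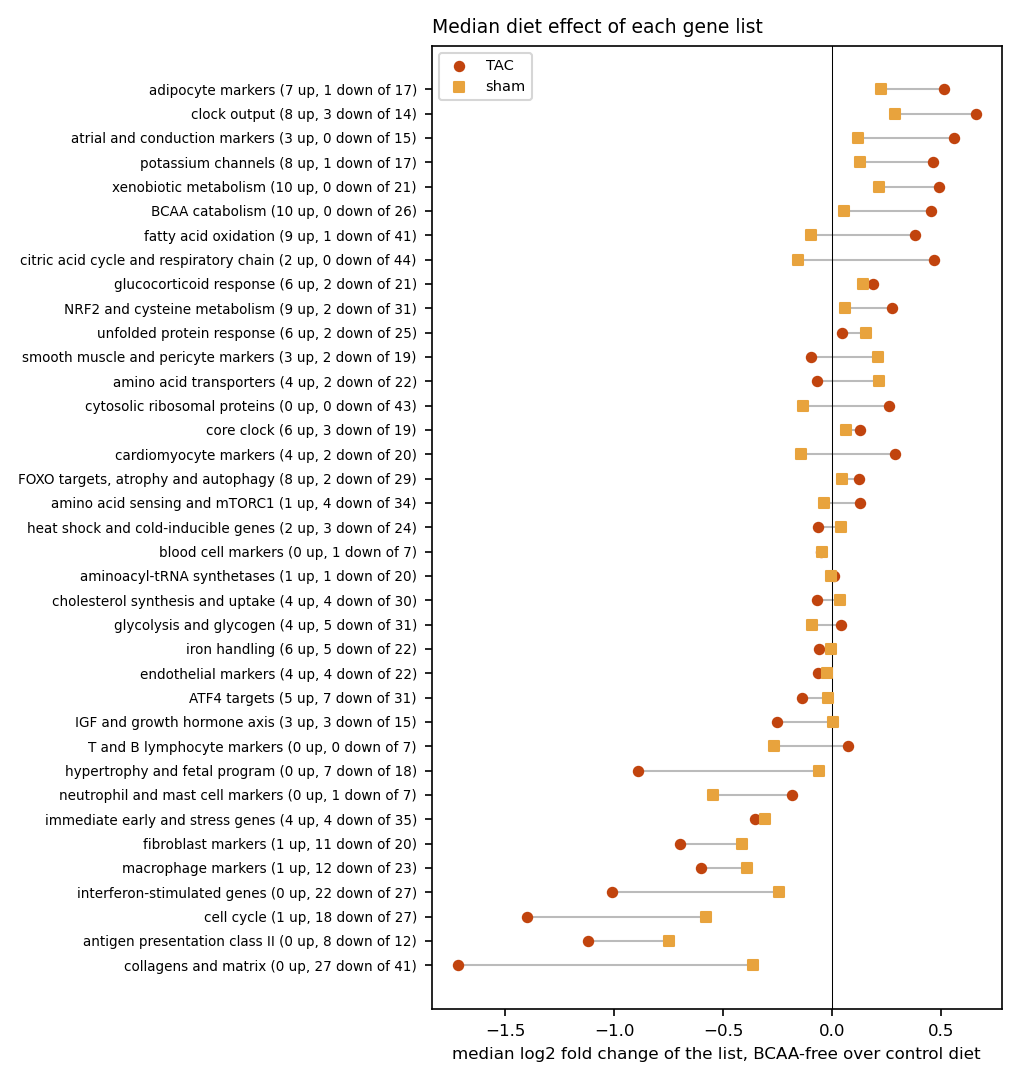
Median diet effect (BCAA-free minus control diet, log2, x axis) of the 37 gene lists, with TAC as circles and sham as squares. The collagens and matrix, cell cycle, class II and interferon lists lie furthest to the left, at -1.72, -1.40, -1.12 and -1.01 in TAC, and the sham medians lie nearer to 0.

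Among the largest rises outside the lists, Tcf23, a basic helix-loop-helix factor, had 319, 183 and 220 in BCAA-free TAC against 55.2, 34.1 and 58.5 in control diet TAC hearts. In sham it had 174, 192 and 261 in BCAA-free against 35.3, 82.4 and 84.3 in control diet hearts. It was higher without overlap in both, by 1.98 ± 0.23. The proteoglycan Spock2 rose by 1.46 ± 0.16, the leptin receptor Lepr by 1.20 ± 0.20, the galectin Lgals4 by 1.30 ± 0.18, the desmosome-linked Ppl (periplakin) by 1.56 ± 0.26 and the prostaglandin D synthase Ptgds by 1.07 ± 0.14. Tmem179 (1.24 ± 0.17), the opioid precursor Penk (1.17 ± 0.27) and the orphan receptor Gpr22 (1.12 ± 0.18) complete the rises that the naming rule gives. The remaining fall is Rnf125, a ubiquitin ligase (-1.33 ± 0.22). By transcript class, 70 of 332 long intergenic RNAs (21.1%) rose and 20 (6.02%) fell, and 53 of 437 antisense RNAs (12.1%) rose and 20 (4.58%) fell, against 1401 (10.5%) and 1781 (13.4%) of 13325 protein-coding genes. The strand setting of the counts is not given in the sources used here, so reads of an antisense RNA and its partner cannot be told apart.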

How the data were processed

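PolyA RNA of 12 samples of mouse heart, 3 per group, was sequenced after random priming, per the labels' protocols. The submitters' processing notes name STAR 2.5.2b, Subread 1.5.2, Trimmomatic 0.36 and DESeq2 with the builds GRCm38 and mm10, without their roles. The deposited signal is a normalized read count (reads over the size factor of the library in that table), and 100% of the values gave whole reads within 0.01 of a read, although another check of the step size did not pass for BCAA-free sham 1 and 3 and BCAA-free TAC 1, which enter the fits on recovered reads. The log2 fold changes and p-values of the authors, deposited beside these values, served only for the count of shared calls. The 2 diet tables, normalized separately, were joined by Ensembl ID, and each diet difference lies within 1 table.

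Log2 of the value plus 1 was fitted on 12 libraries with limma 3.58.1 in R 4.3.3 (4 group means, intensity trend, robust variances with statmod 1.5.0), keeping genes whose mean reached 10 in each table, with Benjamini-Hochberg adjustment of p-values across them. A fold change on this scale understates the change of low genes. Depth was 13847107 to 52065900 reads, and replicates differed by more than counting error, with a chi-square per gene of 4.75 to 68.4 where counting error gives 1, so no library was a copy of another. Gene positions come from GENCODE M21 (GRCm38, 99.79% of IDs matched), and promoters from RefSeq GRCm38.p6, which held a promoter for 120 of the 158 genes named by the rule.

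The contrast and the 37 gene lists were chosen with earlier results of these data known. The naming rule took, in each direction, the 15 largest changes of called genes with a mean of at least 100, no overlap of the diets in either operation and a symbol that is not a gene model, clone or pseudogene, and from each list up to 4 called members by smallest p (2 members in a list without calls). The 21 genes past in each operation, and the further list members given, were named after their values were seen. Some genes are not reported here. Alternatives were TMM rescaling, library totals alone, no filter, a mean of at least 100, a pseudocount of 10, a replicate block, recovered reads in edgeR 4.0.16, DESeq2 1.42.0 and limma-voom, each table fitted alone, removal of GC and length trends, and each library left out.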

Additional observations from a re-analysis of the deposited data

Results flagged for a closer look

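Of 158 genes named by the rule, 34 had diet effects that differed between TAC and sham by the test of the difference itself in limma (Benjamini-Hochberg adjusted p of 0.00462 to 0.0479), and 31 of them had the larger effect in TAC. The values that follow are the TAC effect minus the sham effect on the log2 scale, with 3 samples per group. In each of them both effects had the same sign, as a call requires, and the average of the operations therefore mixes a larger and a smaller change.

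Genes that fell on average with the larger fall in TAC were Kif11 (-1.89), Xirp2 (-1.73), Fbn1 (-1.48), Vcan (-1.27), Col4a1 (-1.26), Npas2 (-1.18), Igf1 (-1.17), Rsad2 (-1.15), Kit (-1.12) and Col5a3 (-0.97). To these belong Rcan1 (-0.95), Enah (-0.93), Adamts9 (-0.88), Itga1 (-0.70), Mcam (-0.63), Itga6 (-0.63) and Slc7a6 (-0.49).

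Genes that rose on average with the larger rise in TAC were Cebpb (2.20), Mir208b (1.11), Kcnh2 (1.03), Dgat2 (0.87), Cenpf (0.86), Herpud1 (0.83), Ndufv1 (0.78), Kcnj12 (0.69), Slc2a4 (0.68), Idh2 (0.64), Bcat2 (0.55), Slc25a28 (0.55), Pnpla2 (0.53) and Mpst (0.51). The larger effect was in sham for Pim1 (1.03), which fell by 0.41 in TAC and 1.43 in sham, for Gapdh (0.53), which fell by 0.09 in TAC and 0.61 in sham, and for Mylk (-0.51), which was higher by 0.22 in TAC and 0.74 in sham. For Cebpb, Xirp2, Kit, Enah, Igf1, Ndufv1, Slc2a4, Bcat2 and Mpst the sham effect was under 0.1 on the log2 scale, so their place among the genes changed on average rests on TAC.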

How the results depend on the processing

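The numbers of genes called up and down on average stayed within 1.5 times of 1634 and 1873 under every alternative run, at 1229 to 1997 up and 1422 to 2145 down, and no named gene reversed. Of the named genes, 11 lost the call and 2 gained it under at least one alternative.

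The numbers past in each operation (8 up, 13 down) depended on the test and on single samples. They were 6 and 8 with TMM-rescaled values (14 of the 21 genes among them), 14 and 12 with library totals alone (15), 18 and 15 with a pseudocount of 10 (21), and 1 and 1 with each table fitted alone (2). With GC and length trends removed they were 38 and 55 (21). On the recovered reads they were 9 and 14 with edgeR (20), 6 and 10 with limma-voom (14) and 88 and 137 with DESeq2 (21). The cause of these differences was not tested. Leaving out 1 library gave 2 to 33 up and 1 to 60 down. The replicate block, with 1470 up and 1728 down on average, gave 17 and 33 past in each operation, with 15 of the 21 genes among them. Deviations of samples with the same replicate number correlated at -0.17 to 0.06 between the diets. These values, taken across all genes, show no pairing by number, but cannot exclude one that touches only part of the genes.

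List counts of 2 or fewer often moved by 1 when a library was left out. Depth limits genes near the minimum mean of 10, and with 3 samples per group a change that missed the threshold is not shown to be absent.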
